A study of Mus musculus with 12 samples.

Results

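Heat shock proteins and chaperonins were followed through spermatid elongation as 116 contigs of 72 genes, out of 12114 contigs and 7010 gene symbols in the count table. A contig is 1 reference transcript, and many genes have more than 1. Members were chosen by gene symbol alone: the Hsp families, the Dnaj co-chaperones, the Cct subunits with Tcp1, and the numbered Bag genes. All 116 passed the filter on low counts, which left 11831 contigs for testing. By family, the members were 12 contigs of HSP70, 5 of HSP110, 5 of HSP90, 5 of small heat shock proteins, 1 of mitochondrial HSP10, 16 of the CCT ring, 7 of DNAJA, 22 of DNAJB, 29 of DNAJC, 11 of BAG, and 3 of Hspbp1 and Hspbap1, which are named for binding heat shock proteins. The gene of mitochondrial HSP60, the partner of HSP10, was not among the contigs analysed here.

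RNA came from round spermatids (RS), the haploid cells that leave meiosis, and from elongated spermatids (ES), whose nuclei condense while the sperm tail forms. Both were sorted by flow cytometry from the testes of adult mice of 2 genotypes, Tent5c wt/wt and Tent5c dcat/dcat. The dcat allele encodes a TENT5C protein without catalytic activity. TENT5C belongs to the non-canonical poly(A) polymerases and lengthens the tails of some mRNAs, and the question behind the genotype comparison was which transcripts depend on that activity. Each of the 4 groups had 3 libraries of nanopore direct RNA sequencing, in which native poly(A) RNA is read molecule by molecule. A library was built from the pooled RNA of 3 mice, so p-values describe the spread between pools and not between single animals. The mutation alters the protein and not the presence of the transcript, so the count of Tent5c reads does not check the genotype labels.

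Heat shock proteins are molecular chaperones, which bind unfolded chains and help them reach or keep their native shape. HSP70 proteins bind and release clients in a cycle driven by ATP. DNAJ proteins, also called HSP40, deliver clients to HSP70 and trigger ATP hydrolysis, while BAG and HSP110 proteins drive the release of ADP. HSP90 acts later, on nearly folded clients. The CCT ring, built from different subunits of which Tcp1 is one, folds actin and tubulin inside its cavity. The testis is known for chaperone genes that are used mainly in germ cells, among them Hspa2, Hspa1l, Hspb9, Dnajb3, Dnajb8 and Cct8l1.

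The promoters of 3 genes are shown first. They were chosen because heat shock factors bind GAA repeats and all 3 genes were higher in ES. Whether such a factor acts on these promoters was not tested. They are the 250 bases before the start of Hspa1a and Hspa1l, which are neighbours on chromosome 17 and are transcribed away from each other, and of Dnaja4. The sequences are from RefSeq, build GRCm38.p6, printed 5′ to 3′ on the strand of the gene. Capitals mark GAANNTTC, 1 of the 2 arrangements in which adjacent heat shock repeats meet. As counted below, it was in 3 of 18 member genes higher in ES wt/wt, 2 of 16 lower ones and 4 of 26 of neither kind. Hspa1a lies at chr17:34972157-34972406 on the minus strand, Hspa1l at chr17:34972453-34972702 on the plus strand and Dnaja4 at chr9:54699309-54699558 on the plus strand.
Hspa1a: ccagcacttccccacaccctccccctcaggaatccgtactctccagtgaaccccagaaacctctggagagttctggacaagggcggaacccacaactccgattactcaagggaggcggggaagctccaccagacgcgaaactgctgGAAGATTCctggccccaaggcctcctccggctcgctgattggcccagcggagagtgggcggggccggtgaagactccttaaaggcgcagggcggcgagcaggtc
Hspa1l: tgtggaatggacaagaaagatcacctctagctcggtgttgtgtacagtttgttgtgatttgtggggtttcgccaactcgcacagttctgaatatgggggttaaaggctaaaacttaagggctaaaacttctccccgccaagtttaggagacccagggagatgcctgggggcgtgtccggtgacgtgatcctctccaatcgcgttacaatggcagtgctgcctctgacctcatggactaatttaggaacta
Dnaja4: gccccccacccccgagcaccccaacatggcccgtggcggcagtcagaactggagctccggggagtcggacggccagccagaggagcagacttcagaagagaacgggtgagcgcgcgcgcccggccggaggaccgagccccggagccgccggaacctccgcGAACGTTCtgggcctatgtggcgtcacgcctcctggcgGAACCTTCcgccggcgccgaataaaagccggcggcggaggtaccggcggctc

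Libraries with the number 1 stood apart in how reads were spread over the transcripts of a gene. Of the 29 member genes with several contigs, 15 had in all 4 groups either their highest or their lowest share of the most counted contig in library 1. Library 2 was outermost in this way for 2 genes and library 3 for 0. The share of Tcp1 reads on its most counted contig was 90.2% in RS wt/wt library 1, against 74.0% and 74.4% in the other two. For Hspa2 the shares were 92.4%, 68.6% and 68.7%, and for Bag5 they were 53.2%, 83.8% and 82.2%. Values of several minor contigs spread widely within a group. The plot of transcript shares shows the values for 5 genes. Tests without the 4 libraries numbered 1 were chosen after seeing the data, and are given after the BAG genes for the main contigs whose call they ended.

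**Figure D1:**
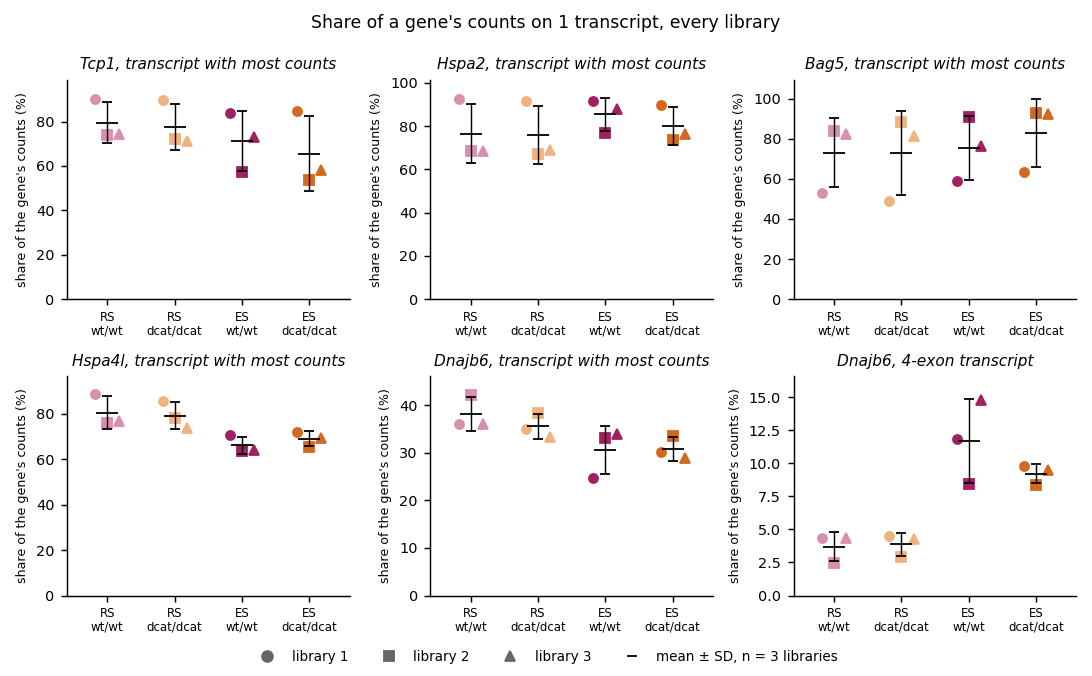
Share of a gene's reads on its most counted contig (percent, y axis) in each library for 5 member genes, and for the 4-exon contig of Dnajb6 in the last panel. Markers give the library number and bars the mean ± SD of 3 libraries. For Tcp1, Hspa2, Bag5 and Hspa4l, library 1 was outermost in every group, as in RS wt/wt for Hspa2 at 92.4% against 68.6% and 68.7%, which was not so for Dnajb6.

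Values below are CPM, the count of a contig per 1000000 reads of the library, after scaling by the trimmed mean of M-values (TMM), which sets the bulk of contigs level between libraries. Total counts ran from 337287 to 1359427 per library, and a floor of 3 counts lay between 1.77 and 10.6 CPM. Members were counted more deeply than most contigs, with a median of 625.5 reads over the 12 libraries against 216 for all contigs, and a range from 53 to 16695. The scaling matters between stages, because the TMM factors were 1.25 to 1.31 in RS and 0.74 to 0.84 in ES. By total counts alone, the median change of all contigs from RS to ES in wt/wt was -0.96 on the log2 scale, against -0.24 with TMM. A call below is an adjusted p-value (q) at or under 0.05 from edgeR's quasi-likelihood test across all contigs.

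Chaperone transcripts changed between stages in both directions. In wt/wt, 59 of the 116 member contigs were called, 36 higher in ES in 23 genes and 23 lower in 21 genes. This was 50.9% of members, 31.0% higher and 19.8% lower, where 40.3% of all contigs were called, 23.8% higher and 16.5% lower. The median log2 change was 0.05 over the members and -0.24 over all contigs. In dcat/dcat, 53 members were called, 30 higher and 23 lower, or 45.7%, where 41.0% of all contigs were called, 24.0% higher and 16.9% lower. Of the members, 47 were called in wt/wt and in dcat/dcat alike, 29 higher in both and 18 lower in both. The share of all contigs called in both is not given here, so these counts describe the members alone. The 116 log2 changes in wt/wt and in dcat/dcat, which share no library but were sorted in the same sessions, correlated with r 0.94 (Pearson) and rho 0.92 (Spearman), as a description over contigs that share genes and scaling. The number called and its balance both moved with scaling. By total counts, 21 members were higher and 49 lower in wt/wt, and 20 were higher and 45 lower in dcat/dcat. Under that scaling 16.5% of all contigs were called higher and 45.7% lower in wt/wt (16.6% and 42.2% in the mutant), since it moved the median of all contigs in wt/wt to -0.96. The members' shares were 18.1% and 42.2% in wt/wt. Of the 36 contigs called higher in wt/wt, 21 were also called higher by total counts. For lower contigs the scaling works in the direction of the call, so it is no check of them. Families differed in their share of contigs called in wt/wt, from 75.0% for HSP70 and 51.7% for DNAJC to 37.5% for the CCT ring and 31.8% for DNAJB, the last pair below the 40.3% of all contigs. In dcat/dcat the shares were 83.3%, 37.9%, 43.8% and 31.8% in the same order, where all contigs had 41.0%. DNAJC and the CCT ring thus changed places between the genotypes.

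**Figure D2:**
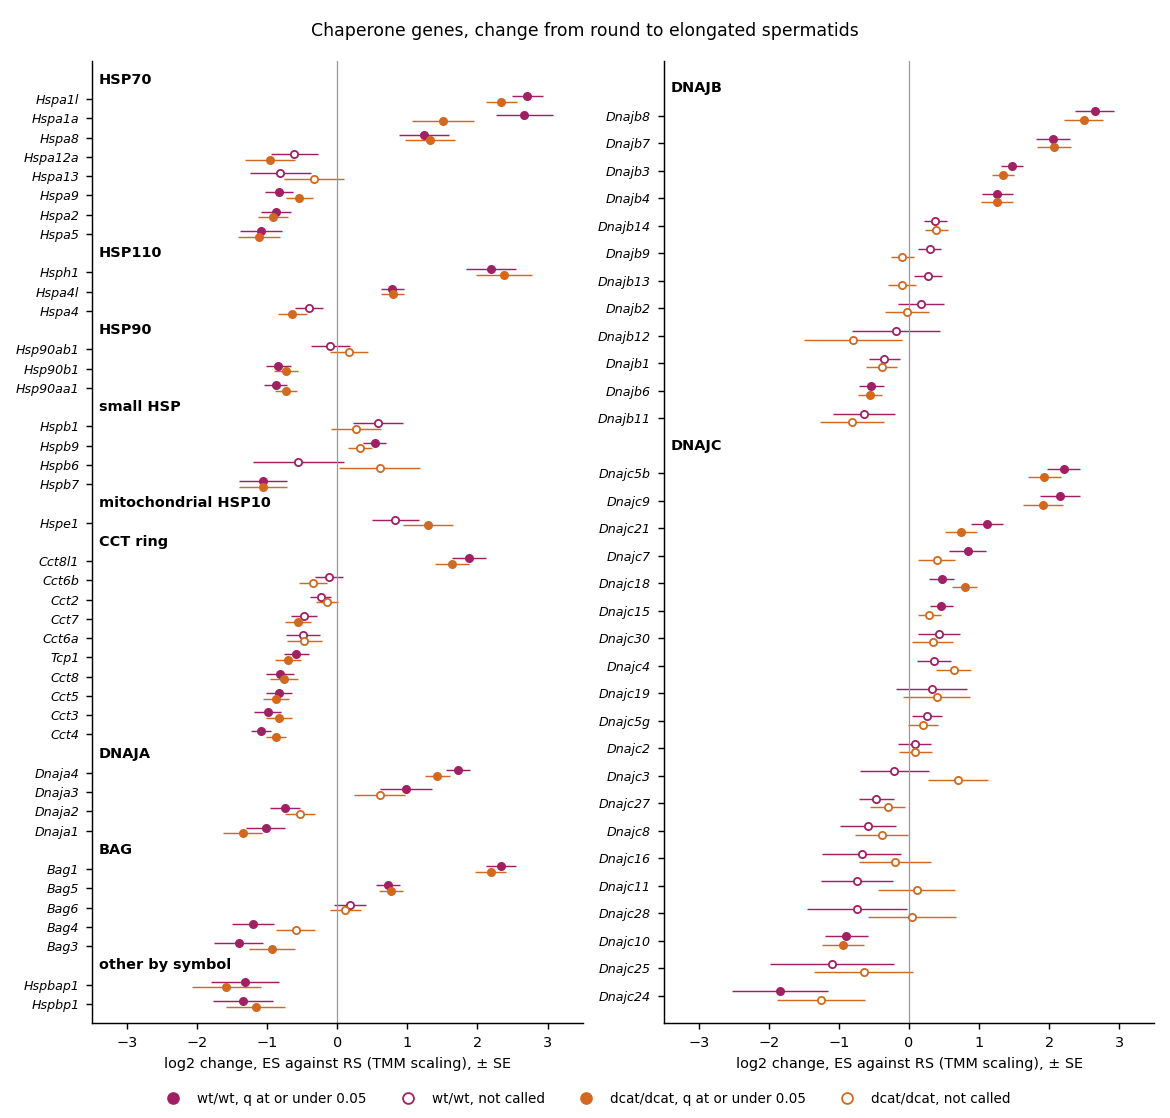
Change from RS to ES on the log2 scale (x axis, with standard errors) for the most counted contig of each member gene, grouped by chaperone family on the y axis, in wt/wt and in dcat/dcat. Filled points were called and open points were not. Hspa1l, Dnajb8, Bag1 and Dnajc5b lie farthest to the right in their families, while Hsp90aa1 and most CCT subunits lie to the left of 0.

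Sums over a family showed where the reads went. The CCT ring held 0.692% of all counts in the RS libraries of wt/wt and 0.298% in the ES libraries, and in summed CPM it went from 5435 ± 132 to 3833 ± 154 (SD, n = 3). The HSP90 contigs also went down in sum, from 1601 ± 56.4 CPM to 940 ± 44.4 CPM. DNAJB contigs went the other way, from 3448 ± 287 CPM to 6826 ± 667 CPM, and their share of all counts from 0.439% to 0.529%. Much of that rise lay in Dnajb3 and Dnajb8, given below, while 15 of the 22 DNAJB contigs were not called in wt/wt. BAG contigs went from 1091 ± 169 CPM to 2219 ± 237 CPM. For all members together the direction depended on the scale: the sum went up from 17320 ± 328 to 22060 ± 1321 CPM (SD, n = 3) while the share of all counts went from 2.21% to 1.71%. These sums are descriptions and carry no test. In bulk libraries, less RNA per cell and fewer cells holding an RNA cannot be told apart.

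The HSP70 family split, with 3 genes higher in ES and 4 lower. Hspa1l, the testis-enriched HSP70 beside Hspa1a, was read at 161, 172 and 209 CPM in the RS wt/wt libraries and at 1367, 982 and 1215 CPM in ES wt/wt. In dcat/dcat it was at 189, 164 and 293 CPM in RS and at 1203, 1001 and 1084 CPM in ES. Every ES library was above every RS library in both genotypes. The log2 change was 2.71 ± 0.22 (SE, q 1.67e-06) in wt/wt and 2.34 (q 3.43e-06) in dcat/dcat, and the call held without any 1 library and by total counts. Hspa1a, the stress-inducible HSP70, was rare in RS wt/wt, at 3.32, 4.77 and 6.51 CPM, and stood at 44.4, 24.7 and 28.3 CPM in ES wt/wt. Its log2 change was 2.67 ± 0.40 (SE, q 0.000123), and in dcat/dcat it was 1.51 ± 0.44 (SE, q 0.0136). The dcat/dcat call was lost without ES library 2 (q 0.0551) and by total counts (q 0.107), while the wt/wt call held in the 4 fits with 1 library left out in which the contig still passed the count filter. Hspa1a is 99.4% identical over most of its length to Hspa1b, which has no contig among those counted, so its reads may belong to either gene. The constitutive Hspa8 rose from 21.4 ± 4.30 to 50.4 ± 16.7 CPM (SD, n = 3) in wt/wt, with a log2 change of 1.23 (q 0.0133) that was not called by total counts (0.51). Its call was lost without RS wt/wt library 3 (q 0.0572) or ES wt/wt library 1 (q 0.0772). In dcat/dcat it rose by 1.32 (q 0.00845), called in each of the 6 fits with 1 library left out but not by total counts (0.65, q 0.128). Its contigs are nearly identical to a processed pseudogene.

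Hspa2, the HSP70 that spermatocytes need to complete meiosis, fell. Its most counted contig was at 924, 717 and 580 CPM in RS wt/wt and at 361, 331 and 526 CPM in ES wt/wt. In dcat/dcat the libraries held 857, 747 and 631 CPM in RS and 434, 335 and 415 CPM in ES, again with no overlap. The log2 change was -0.88 ± 0.22 (SE, q 0.00487) in wt/wt and -0.92 (q 0.00347) in dcat/dcat, with the wt/wt call lost without ES library 2 (q 0.0532). Hspa5, the HSP70 of the endoplasmic reticulum also called BiP, changed by -1.09 in wt/wt (q 0.0104) and -1.12 in dcat/dcat (q 0.00849). The wt/wt call of Hspa5 was lost without RS library 1 (q 0.0518) or ES library 2 (q 0.103). Hspa9, the mitochondrial HSP70, changed by -0.83 (q 0.00343) and by -0.54 (q 0.0349), and in dcat/dcat its call was lost without RS library 1 (q 0.134) or ES library 1 (q 0.0761), 2 (q 0.128) or 3 (q 0.0520). The fourth lower gene of the 8, the atypical Hspa12a, had 2 contigs, both of them non-coding. It was called in wt/wt through the minor contig (-2.16, q 0.00737), which was lost without ES library 1 (q 0.0573) and is named here after its values were seen. In dcat/dcat that contig changed by -1.94 (q 0.0167, called in 4 of 6 fits with 1 library left out). The main contig of Hspa12a changed by -0.96 there (q 0.0466, called in 1 of 6 such fits) and was not called in wt/wt (-0.61, q 0.166).

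**Figure D3:**
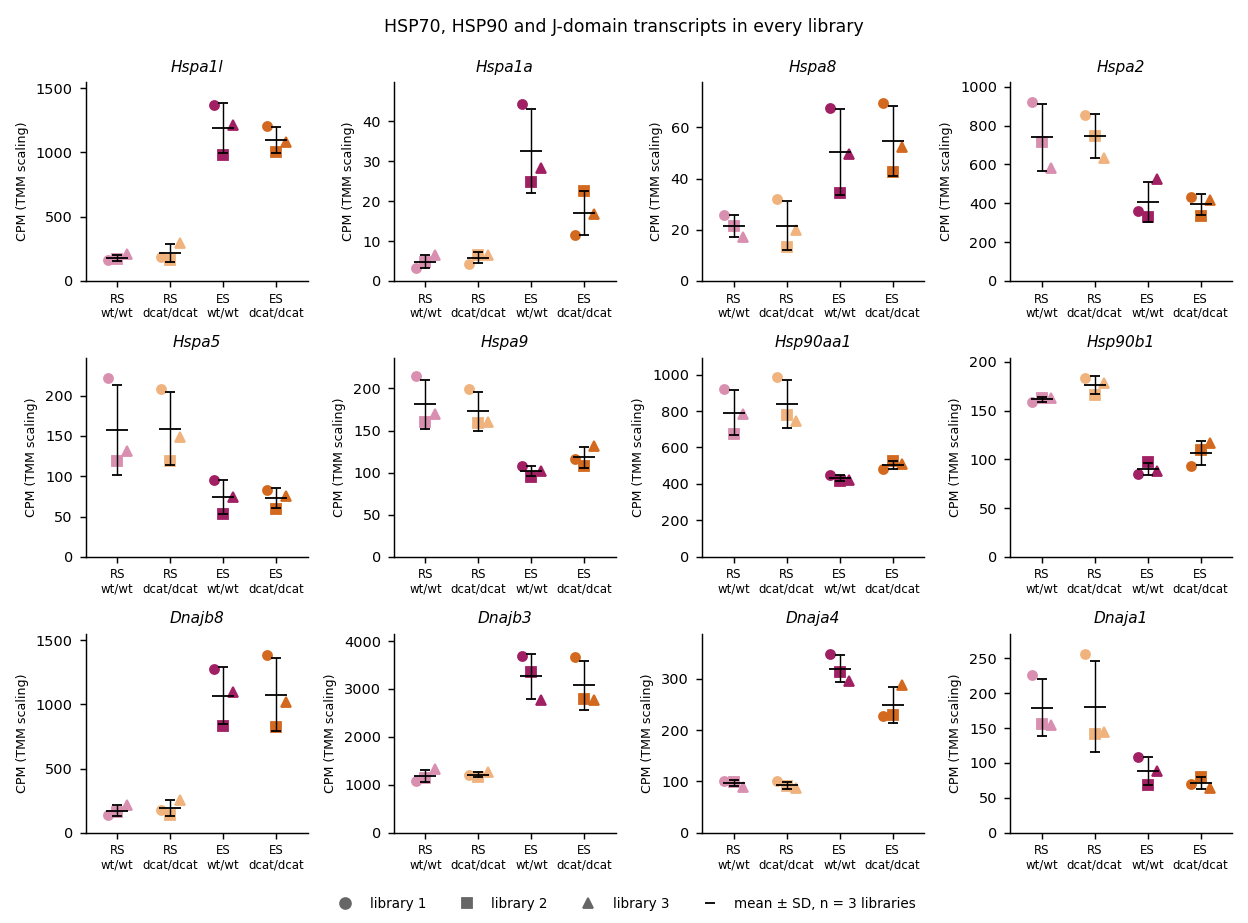
CPM (TMM-scaled, y axis from 0) in each library of the 4 groups for 12 members of the HSP70, HSP90 and DNAJ families, with the group mean ± SD of 3 libraries. Hspa1l and Hspa1a stand higher in ES than in RS with no overlap, and Hspa2, Hsp90aa1 and Hsp90b1 stand lower.

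In wt/wt, 3 of the 5 HSP110 contigs were called higher and 0 lower, while 3 of the 5 HSP90 contigs were called lower and 0 higher. Both families have few contigs, and over all contigs 23.8% were called higher and 16.5% lower. Hspa4l, an HSP110 protein abundant in germ cells, was at 268, 226 and 258 CPM in RS wt/wt and at 482, 474 and 339 CPM in ES wt/wt. Relative to the bulk of contigs its log2 rise was 0.79 ± 0.17 (SE, q 0.00180) in wt/wt and 0.79 (q 0.00171) in dcat/dcat, while by total counts the wt/wt change was 0.06. Its second contig rose by 1.85 in wt/wt (q 0.000233), and the share of Hspa4l reads on the main contig went from 80.4% to 66.0%. Hspa4, the broadly used HSP110, was lower in ES dcat/dcat (-0.64, q 0.0202) and was not called in wt/wt (-0.40, q 0.125). The dcat/dcat call of Hspa4 was lost without RS library 1 (q 0.0650) or ES library 1 (q 0.0839) or 2 (q 0.0582). The most counted contig of Hsph1 was a retained-intron transcript, which rose by 2.19 (q 0.000199) in wt/wt and 2.38 (q 0.000276) in dcat/dcat. The coding contig of Hsph1 changed by 0.23 in wt/wt (q 0.785).

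The 2 HSP90 genes that changed were Hsp90aa1 and Hsp90b1. Hsp90aa1, the cytosolic alpha form, was at 920, 672 and 781 CPM in RS wt/wt and at 450.0, 418 and 424 CPM in ES wt/wt. Its log2 change was -0.88 ± 0.16 (SE, q 0.000591) in wt/wt and -0.73 (q 0.00214) in dcat/dcat, with no overlap of the libraries in either. Hsp90b1, the form of the endoplasmic reticulum also called GRP94, went from 159, 163 and 163 CPM to 84.5, 97.0 and 88.3 CPM in wt/wt. It changed by -0.84 ± 0.18 (SE, q 0.00156) and in dcat/dcat by -0.73 (q 0.00370). Both calls held without any 1 library. Hsp90ab1, the cytosolic beta form, was not called, at 84.1 ± 19.6 CPM in RS wt/wt and 78.4 ± 2.60 CPM in ES wt/wt (SD, n = 3, log2 change -0.10, q 0.801). Hsp90aa1 and Hsp90ab1 each have a processed pseudogene of over 90% identity, so some of their reads are uncertain.

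The small heat shock proteins, which hold unfolded chains without ATP, had 2 contigs called higher and 1 lower of 5 in wt/wt. Hspb9, found mainly in testis, was at 770.2, 896 and 903 CPM in RS wt/wt and at 1329, 1134 and 1254 CPM in ES wt/wt. Relative to the bulk of contigs it rose by 0.53 ± 0.17 on the log2 scale (SE, q 0.0207), and by total counts the change was -0.18 and not called. Its call was lost without RS wt/wt library 1 (q 0.0700), and in dcat/dcat the change was 0.33 (q 0.136). The other Hspb9 contig, ENSMUST00000017976, was called in wt/wt (0.57, q 0.0195) and in dcat/dcat (0.53, q 0.0276, in 3 of 6 fits with 1 library left out), and by total counts its changes were -0.14 and -0.15. Hspb7, known from heart muscle, was called lower, with a log2 change of -1.06 in wt/wt (q 0.0228) and -1.07 in dcat/dcat (q 0.0222). That call was kept in wt/wt only without RS library 2, and q reached 0.113 without ES library 2. In dcat/dcat it was lost without RS library 1 (q 0.0762) or ES library 1 (q 0.0531) or 2 (q 0.101). Hspb1 was not called in either genotype (0.58, q 0.210, and 0.27, q 0.567), and by total counts its sign turned (-0.14 and -0.39). Hspb6 was not called either (-0.55 in wt/wt, q 0.515, and 0.61 in dcat/dcat, q 0.419, the latter -0.06 by total counts). Hspe1, the mitochondrial HSP10, was at 16.6, 11.9 and 15.4 CPM in RS wt/wt and 27.5, 26.6 and 24.7 CPM in ES wt/wt. These libraries did not overlap, yet the log2 change of 0.83 ± 0.34 (SE, q 0.0643) was not called in wt/wt, while in dcat/dcat 1.30 was (q 0.00975), though not by total counts (0.63, q 0.142). Over 66.5% of its length the Hspe1 contig is 99% identical to another protein-coding transcript, of AC117239.2, so its reads may belong to either.

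Where subunits of the CCT ring changed they fell, apart from Cct8l1. Of the 16 contigs, 5 were called lower and 1 higher in wt/wt, against 6 and 1 in dcat/dcat. In wt/wt that is 31.2% lower and 6.25% higher, where 16.5% of all contigs were lower and 23.8% higher. In dcat/dcat it is 37.5% and 6.25%, where all contigs had 16.9% and 24.0%. Cct4, the delta subunit, went from 548, 595 and 551 CPM in RS wt/wt to 262, 255 and 279 CPM in ES wt/wt. In dcat/dcat it went from 589, 564 and 516 CPM to 297, 322 and 290.4 CPM. Its log2 change was -1.09 ± 0.14 (SE, q 3.12e-05) in wt/wt and -0.88 (q 0.000191) in dcat/dcat, called without any 1 library. Tcp1, the alpha subunit, was at 2183, 1872 and 1787 CPM in RS wt/wt and at 1536, 1103 and 1261 CPM in ES wt/wt. It changed by -0.58 ± 0.18 (SE, q 0.0196) in wt/wt and -0.70 (q 0.00665) in dcat/dcat. The wt/wt call of Tcp1 was lost without RS library 1 (q 0.0587) or ES library 2 (q 0.205) or 3 (q 0.0676), and it held with libraries 2 and 3 alone (q 0.00305).

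On their most counted contigs, the other subunits differed more in the size of the change than in its sign. Cct3 changed by -0.99 in wt/wt (q 0.000750), Cct5 by -0.84 (q 0.00248) and Cct8 by -0.81 (q 0.00515), and in dcat/dcat these 3 changed by -0.83, -0.88 and -0.77, all called. Of these 3, only Cct8 lost its wt/wt call with 1 library left out, which was ES library 1 (q 0.0516). Cct7 was just outside the threshold in wt/wt (-0.47, q 0.0576) and inside it in dcat/dcat (-0.56, q 0.0273), where the call was lost without RS library 1 (q 0.151) or ES library 2 (q 0.0989) or 3 (q 0.112). Cct2 (-0.23, q 0.232) and Cct6a (-0.49, q 0.131, a non-coding contig) were not called in wt/wt. Cct6b, the testis form of subunit zeta, stood at 182, 187 and 181 CPM in RS wt/wt and at 188, 196 and 117 CPM in ES wt/wt, which overlapped (-0.12, q 0.661). Cct8l1, a single-exon relative of subunit theta, was the exception to the direction. It went from 26.6, 21.4 and 39.0 CPM to 125, 108 and 91.8 CPM in wt/wt, a log2 change of 1.87 ± 0.24 (SE, q 3.00e-05). In dcat/dcat the change was 1.64 (q 9.54e-05).

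**Figure D4:**
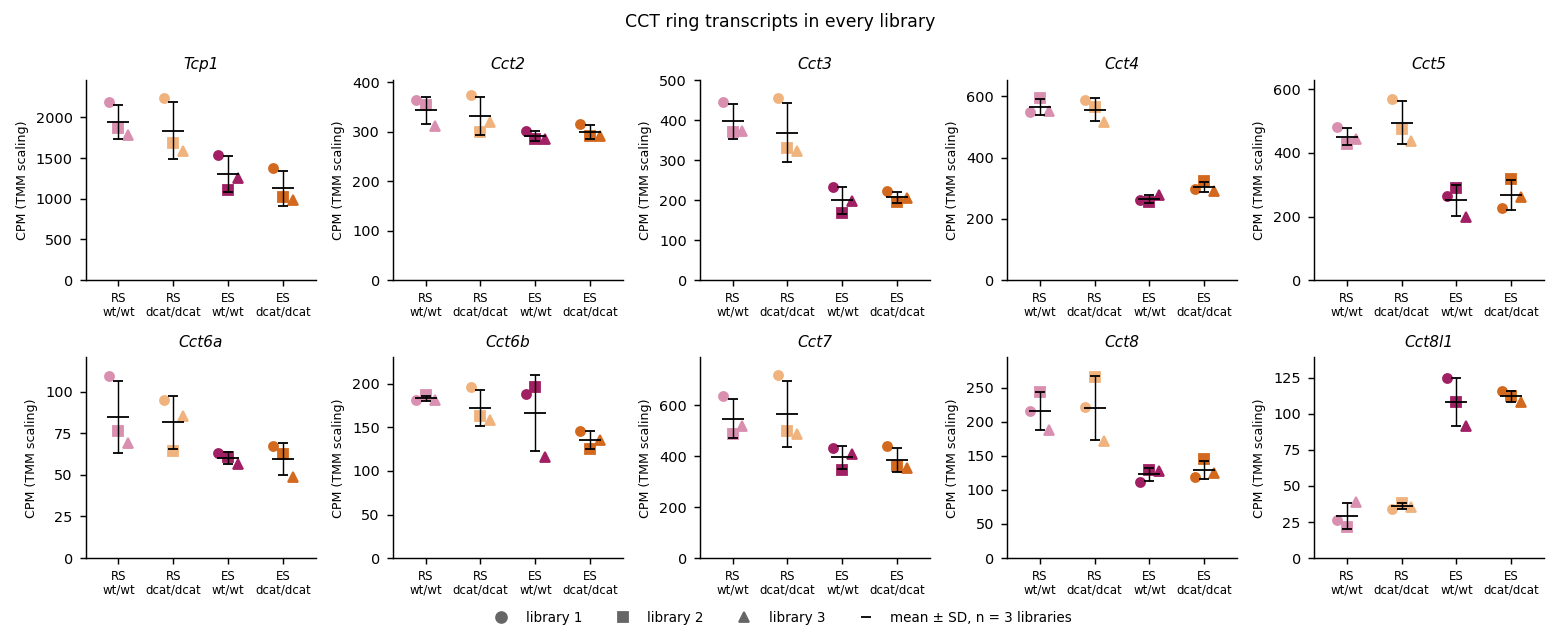
CPM (TMM-scaled, y axis from 0) in each library of the 4 groups for the CCT ring subunits and Cct8l1, with the group mean ± SD of 3 libraries. Cct4, Cct3, Cct5 and Cct8 were lower in ES, Cct2 and Cct6b were not called, and Cct8l1 was higher.

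Among the DNAJB co-chaperones, Dnajb3, Dnajb8, Dnajb7 and Dnajb4 rose. Of the 22 contigs, 6 were called higher and 1 lower in wt/wt, against 5 and 2 in dcat/dcat. The 27.3% called higher in wt/wt lay near the 23.8% of all contigs. Dnajb3 held 1088, 1132 and 1324 CPM in RS wt/wt and 3687, 3365 and 2761 CPM in ES wt/wt. In dcat/dcat it went from 1206, 1158 and 1274 CPM to 3663, 2799 and 2771 CPM. The log2 change was 1.47 ± 0.16 (SE, q 5.61e-06) in wt/wt and 1.34 (q 1.44e-05) in dcat/dcat. Dnajb8, a suppressor of protein aggregation, went from 134, 161 and 215 CPM to 1276, 833 and 1098 CPM in wt/wt. The log2 change was 2.65 ± 0.28 (SE, q 4.74e-06) in wt/wt and 2.49 (q 9.63e-06) in dcat/dcat. Dnajb7 rose by 2.05 (q 1.41e-05) and Dnajb4 by 1.26 (q 0.000424) in wt/wt, and both rose in dcat/dcat. These 4 genes had no overlap between RS and ES libraries in either genotype and were called without any 1 library and by total counts. Dnajb1, the main stress-inducible HSP40, was not called (-0.35 in wt/wt, q 0.220, and -0.39 in dcat/dcat, q 0.169), but with the replicate number as a block it was in dcat/dcat (-0.41, q 0.0401 by edgeR). Dnajb14, anchored in the endoplasmic reticulum membrane, was at 224 ± 23.3 CPM in RS wt/wt and 291 ± 39.3 CPM in ES wt/wt (SD, n = 3), and its log2 change of 0.38 (q 0.0755) was -0.34 by total counts. In dcat/dcat Dnajb14 was called with the block (0.39, q 0.0354 by edgeR), and without it was not.

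Transcripts of Dnajb6 moved in opposite directions in wt/wt. Its product keeps polyglutamine proteins from aggregating. The most counted contig went from 174, 186 and 171 CPM in RS wt/wt to 101, 127 and 138 CPM in ES wt/wt (-0.54 ± 0.18, SE, q 0.0239). The contig ENSMUST00000140376, whose 4 exons begin inside the gene, went from 20.8, 10.7 and 20.7 CPM to 48.6, 32.3 and 60.0 CPM (1.35 ± 0.34, SE, q 0.00536). The 4-exon contig thus went from 3.7% to 11.7% of the Dnajb6 reads counted in wt/wt, and from 3.9% to 9.2% in dcat/dcat, where its change of 0.87 was not called (q 0.0555) unless the replicate number was a block (0.88, q 0.0109). Its rise in wt/wt was called without any 1 library but not by total counts (0.64, q 0.119), and 69.8% of it matches a processed pseudogene at 98% identity. The fall of the main contig was lost without RS wt/wt library 2 (q 0.0684) or ES wt/wt library 1 (q 0.221) or 2 (q 0.0857). In dcat/dcat the main contig changed by -0.56 (q 0.0198), lost without RS library 1 (q 0.0620) or ES library 2 (q 0.0532) or 3 (q 0.0636).

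The 4 DNAJA genes split, with Dnaja4 and Dnaja3 higher and Dnaja1 and Dnaja2 lower in wt/wt. Dnaja4 was at 101, 98.9 and 89.9 CPM in RS wt/wt and at 349, 314 and 297 CPM in ES wt/wt, and in dcat/dcat at 100.4, 90.5 and 86.5 CPM in RS and 227, 230 and 289 CPM in ES. Its log2 change was 1.73 ± 0.17 (SE, q 3.77e-06) in wt/wt and 1.43 (q 2.22e-05) in dcat/dcat. Dnaja1, the general cytosolic form, was at 226, 156 and 154 CPM in RS wt/wt and at 108, 68.5 and 88.3 CPM in ES wt/wt. It changed by -1.02 ± 0.28 (SE, q 0.00840) in wt/wt, lost without ES library 2 (q 0.0880), and by -1.35 in dcat/dcat (q 0.00143). Dnaja2, its close relative, changed by -0.74 in wt/wt (q 0.0136, lost without ES library 2, q 0.147) and by -0.53 in dcat/dcat (q 0.0628, and q 0.0210 with the replicate number as a block). Dnaja3, the mitochondrial form, was called higher in wt/wt (0.98, q 0.0470) by a narrow margin. That call remained only without ES wt/wt library 1, q reached 0.154 without ES wt/wt library 3, and by total counts the change was 0.27.

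DNAJC proteins share only the J domain and serve many processes. Of their 29 contigs, 13 were called higher and 2 lower in wt/wt, against 10 and 1 in dcat/dcat. The 13 higher contigs belong to 7 genes. In wt/wt the shares were 44.8% higher and 6.90% lower, where all contigs had 23.8% and 16.5%. In dcat/dcat they were 34.5% and 3.45%, where all contigs had 24.0% and 16.9%. Dnajc5b, a cysteine-string protein of the testis, went from 82.2, 82.2 and 116 CPM to 509, 418 and 371 CPM in wt/wt (2.21 ± 0.24, SE, q 6.24e-06). All 4 of its contigs were called higher in both genotypes. Dnajc9, a histone chaperone, went from 38.2, 44.1 and 60.3 CPM to 251, 226 and 159 CPM in wt/wt (2.15 ± 0.28, SE, q 3.80e-05) and rose by 1.92 in dcat/dcat (q 0.000108). Both genes were called without any 1 library and by total counts. Dnajc21, which acts in ribosome assembly, rose by 1.11 in wt/wt (q 0.00170) and by 0.74 in dcat/dcat (q 0.0195), and by total counts the changes were 0.40 and 0.07. Its dcat/dcat call was lost without RS library 2 (q 0.0685) or ES library 3 (q 0.0700). Dnajc15, a mitochondrial import factor, was called higher in wt/wt (0.46, q 0.0352) and Dnajc18 in both genotypes (0.47, q 0.0497, and 0.79, q 0.00264), but by total counts their wt/wt changes were -0.26 and -0.26. In wt/wt, Dnajc15 lost its call without RS library 1 (q 0.120) or 2 (q 0.0660) or ES library 2 (q 0.117), and Dnajc18 kept it only without ES library 3. In dcat/dcat Dnajc15 was not called (0.29, q 0.174), while by total counts it was called lower there (-0.39, q 0.0316).

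Other DNAJC calls depended on which libraries were in the fit. Dnajc7, a co-chaperone that binds both HSP70 and HSP90, was at 188, 143 and 141 CPM in RS wt/wt and 353, 245 and 244 CPM in ES wt/wt. It was called higher in wt/wt (0.84, q 0.0200), lost without RS library 2 (q 0.0639) or 3 (q 0.0724) or ES library 1 (q 0.0862) and by total counts (0.11), and was not called in dcat/dcat (0.39, q 0.254). Those values are of its main contig. A minor, non-coding contig of Dnajc7, ENSMUST00000154972, is named here after its values were seen. In wt/wt it was called higher (2.41, q 0.000346), without any 1 library and by total counts (1.71, q 0.00322). The third contig was not called there (0.76, q 0.264). Dnajc10, a disulfide reductase of the endoplasmic reticulum, was called lower in both genotypes (-0.90, q 0.0319, and -0.94, q 0.0206). The wt/wt call of Dnajc10 held in 2 of the 6 fits with 1 library left out, and q was highest, at 0.218, without ES library 1, while the dcat/dcat call held in 3, with a highest q of 0.0749 without ES library 2. Dnajc24, which acts in diphthamide synthesis, was called lower in wt/wt (-1.84, q 0.0437) but in 0 of 6 such fits, with q between 0.0525 and 0.239.

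BAG genes, whose products release nucleotide from HSP70, moved apart. Bag1, which links HSP70 to the proteasome, was at 93.0, 66.7 and 88.7 CPM in RS wt/wt and at 522, 339 and 403 CPM in ES wt/wt. In dcat/dcat it went from 90.8, 74.7 and 89.8 CPM to 473, 344 and 353 CPM. The log2 change was 2.34 ± 0.22 (SE, q 2.36e-06) in wt/wt and 2.19 (q 4.81e-06) in dcat/dcat, and all 3 Bag1 contigs were called higher in both genotypes, without any 1 library and by total counts. Bag5 went from 274, 302 and 350 CPM to 480, 504 and 547 CPM in wt/wt, a rise of 0.72 ± 0.17 relative to the bulk of contigs (SE, q 0.00347) that came to 0.02 by total counts (q 0.934).

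Other BAG members were called lower or not called. Bag3, which acts in stress-induced autophagy, was at 48.2, 48.9 and 50.9 CPM in RS wt/wt and at 23.2, 7.61 and 28.2 CPM in ES wt/wt. It was called lower, with a log2 change of -1.41 in wt/wt (q 0.00511) and -0.93 in dcat/dcat (q 0.0340), and the dcat/dcat call was lost in each of the 6 fits with 1 library left out (q 0.0537 to 0.130). Bag4 was called lower in wt/wt alone (-1.21, q 0.00537), which was lost without ES library 1 (q 0.0522), and in dcat/dcat it changed by -0.59 (q 0.104). Bag6, which guides tail-anchored proteins, was at 265 ± 79.5 CPM in RS wt/wt and 301 ± 39.3 CPM in ES wt/wt (SD, n = 3, q 0.543). Hspbp1, another exchange factor of HSP70, changed by -1.34 in wt/wt (q 0.0206) and by -1.16 in dcat/dcat (q 0.0385). In wt/wt its call was lost without ES library 2 (q 0.153) or 3 (q 0.0543), and in dcat/dcat it held in 1 of 6 such fits (highest q 0.181, without ES library 3). Hspbap1, named for binding a small heat shock protein, changed by -1.32 (q 0.0446) and by -1.58 (q 0.0186). The wt/wt call of Hspbap1 held in 1 of 6 such fits (highest q 0.276, without ES library 2) and the dcat/dcat call in 4 (highest q 0.0805, without ES library 2).

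With libraries 2 and 3 of each group alone, 4 main contigs lost their wt/wt call in edgeR's test, namely Dnajb6 (q 0.152), Dnajc10 (q 0.284), Dnajc15 (q 0.0638) and Dnajc18 (q 0.0957). In dcat/dcat the calls lost were those of Dnajb6 (q 0.0811), Dnajc10 (q 0.0697), Hspa4 (q 0.176), Hspa9 (q 0.165), Hspa12a (q 0.134), Hspb7 (q 0.1005), Hspbap1 (q 0.0657) and Bag3 (q 0.0516). None of these changed sign. Hspa1a was left untested by the filter on low counts in that fit.

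Members of a single exon were mostly higher in ES. The most counted contig had 1 exon in 7 member genes, namely Cct8l1, Dnajb3, Dnajb7, Dnajb8, Dnajc30, Hspa1a and Hspb9, and 6 of the 7 were called higher in wt/wt and 0 lower. Of the 65 other member genes, 15 were called higher and 20 lower. Over all transcript contigs tested, 40.9% of 384 with 1 exon and 22.5% of 10720 with more were higher in ES.

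The promoter windows were searched on both strands for 2 arrangements of the heat shock repeat and for 3 general elements, in the 60 member genes of 72 that had a promoter in the RefSeq table. GAANNTTC was present in 9 of the 60 (15%), against 6.69% of all 32851 promoters and 6.21% of those of genes with a contig. By stage in wt/wt, it was present in 3 of 18 genes with a higher main contig (Cct8l1, Dnaja4 and Hspa1a), 2 of 16 with a lower one (Dnaja1 and Dnajb6) and 4 of 26 not called (Dnajc27, Hspb1, Hspb6 and Hspe1). The window of Dnaja4 printed above holds it at 2 places, that of Hspa1a at 1, and that of Hspa1l at 0. TTCNNGAA was present in 5 of 60 (8.33%), against 7.17% of all promoters and 6.51% of those of genes with a contig. These were Cct5, Dnajb6 and Dnajc10 among the lower genes, Hspe1 among those not called, and Hsph1. The Hsph1 window lies 17142 bases from the start of its higher, retained-intron contig, so it is not the promoter of that contig as annotated. In Dnajb6 the 2 arrangements overlap in 1 run of repeats, and so they do in Hspe1, where TTCNNGAA is present at 2 places. The cAMP response element TGACGTCA, which germ cell activators of the CREM type bind, was in 1 of 60, Dnajc27, against 1.55% of all promoters and 3.09% of those of genes with a contig. CCAAT was in 21 of 60 (35%), against 33.8% and 36.4%. TATAAA was in 3 of 60 (5%), against 12.4% and 6.67%. Such matches describe letters in a window and no binding was measured.

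The wider chaperone machinery was read from lists of gene names. Of 25 contigs of HSP70 and HSP90 co-chaperones, 2 were called higher and 5 lower in wt/wt, with a median log2 change of -0.63, against -0.24 for all contigs. That is 28% called and 20% lower, where 40.3% of all contigs were called and 16.5% lower. The lower ones included St13 (-0.65, q 0.00779), Sugt1 (-1.04, q 0.00101) and Ppid (-1.43, q 0.00256), and Cdc37l1 was higher (0.89, q 0.0133). Of 21 contigs of prefoldin, tubulin folding and other CCT cofactors, 6 were lower and 2 higher (38.1% called), with a median of -0.40. Tbca (-1.05, q 0.00506), Tbcc (-0.83, q 0.00316) and Pfdn6 (-0.92, q 0.00559) were lower, while Pfdn5 was higher (0.86, q 0.00141). Of 18 contigs of organelle chaperones (27.8% called), 3 were lower and 2 higher, the latter both of Clpb, a mitochondrial disaggregase, whose main contig went from 163 ± 28.0 to 835 ± 116 CPM (SD, n = 3, 2.35, q 1.50e-06). Of 7 contigs of heat shock factors and their binding partners, 3 were lower (42.9%) and 0 higher. Hsf5, a factor of male meiosis, changed by -1.01 (q 0.00597) and Hsbp1, which binds heat shock factor trimers, by -0.87 (q 0.000328). Hsf1 was not among the contigs analysed here. In dcat/dcat the lists gave 1 higher and 7 lower, 3 and 7, 2 and 2, and 0 and 3, in the same order.

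Markers of other testis cells moved with stage and are given beside the stage results. Of 9 contigs of Leydig cell markers, 8 were called higher in ES wt/wt and 0 lower, with summed levels of 30.7 to 62.1 CPM in RS wt/wt and 465 to 932 CPM in ES wt/wt. Sertoli cell markers were higher for 8 of 9 contigs, at 39.3 to 49.1 CPM and 222 to 401 CPM in sum. Both macrophage contigs were higher, at 4.15 to 10.6 CPM and 110 to 127 CPM. Both immediate early contigs, Fos and Jund, were also higher, at 15.8 to 37.8 CPM and 145 to 196 CPM. Several defining markers, such as Star and Lhcgr for Leydig cells, Sox9, Wt1 and Amh for Sertoli cells and Adgre1 for macrophages, had no contig among those analysed. None of 8 endothelial and peritubular markers had one, and 8 of 10 immediate early genes had none. Meiotic markers were 5 higher and 7 lower of 27, and round spermatid markers 5 higher and 4 lower of 13. That is 18.5% higher and 25.9% lower for meiotic markers, and 38.5% and 30.8% for round spermatid markers. All contigs had 23.8% higher and 16.5% lower in wt/wt. Markers of elongated spermatids followed the label of the sort, with 12 of 14 contigs higher, at 19660 to 41970 CPM in RS wt/wt and 212600 to 281100 CPM in ES wt/wt. The part of the other cells in the values of the members was not tested.

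No member was called between the genotypes. In RS, 0 of 116 members were called between dcat/dcat and wt/wt by edgeR, where 0% of all contigs were, and 0 members had an unadjusted p under 0.05, where 0.828% of all contigs did. In ES, 0 members were called, where 0% of all contigs were, and 2 had an unadjusted p under 0.05, where 3.01% of all contigs did. With the replicate number as a block, 12 members in ES did (10.3%), where 6.20% of all contigs did, and the smallest q among members was 0.770. In RS with the block, 0 members did, where 2.76% of all contigs did, and 0 members were called. The stage by genotype interaction gave 0 calls among members and 0% of all contigs, with 0 members and 1.44% of contigs at an unadjusted p under 0.05. With the block, 2 members (1.72%) and 3.03% of contigs were at such a p. DESeq2 called 0 members in each of these 3 comparisons. The number of pools limits the size of difference that could be seen. The fit without the block also counts as spread any deviation that same-numbered libraries share.

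The 2 members below an unadjusted p of 0.05 in ES without the block were Hspa1a and 1 contig of Dnajc4. Hspa1a stood at 44.4, 24.7 and 28.3 CPM in ES wt/wt and at 11.6, 22.5 and 16.9 CPM in ES dcat/dcat, without overlap. Against wt/wt, the log2 difference was -0.94 ± 0.39 (SE, edgeR unadjusted p 0.0302, q 0.999967). Counts behind it were low, with 102 reads in the 12 libraries. The interaction for Hspa1a was -1.16 ± 0.61 (SE, unadjusted p 0.0780, not called). For Dnajc4, ENSMUST00000179118 was at 48.6, 57.1 and 38.8 CPM in ES wt/wt and at 39.4, 27.5 and 25.3 CPM in ES dcat/dcat, so that 1 library overlapped. Its difference was -0.68 ± 0.31 (SE, edgeR unadjusted p 0.0432, q 0.999967), and the interaction was -0.81 (unadjusted p 0.0747). Dnaja4 had the next smallest p in ES (-0.36, p 0.0515 before adjustment), and in RS the smallest were those of Dnajc11 (-0.83, p 0.0728), Dnajc5b contig ENSMUST00000118968 (0.49, p 0.119) and Hspe1 (-0.52, p 0.146), all unadjusted from edgeR. For Dnajb9, a co-chaperone of BiP, the interaction was -0.39 (edgeR unadjusted p 0.120). Among members called between stages, the genotype difference of Hspa1l was 0.26 in RS and -0.12 in ES, and that of Cct4 was -0.02 and 0.19, on the log2 scale.

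**Figure D5:**
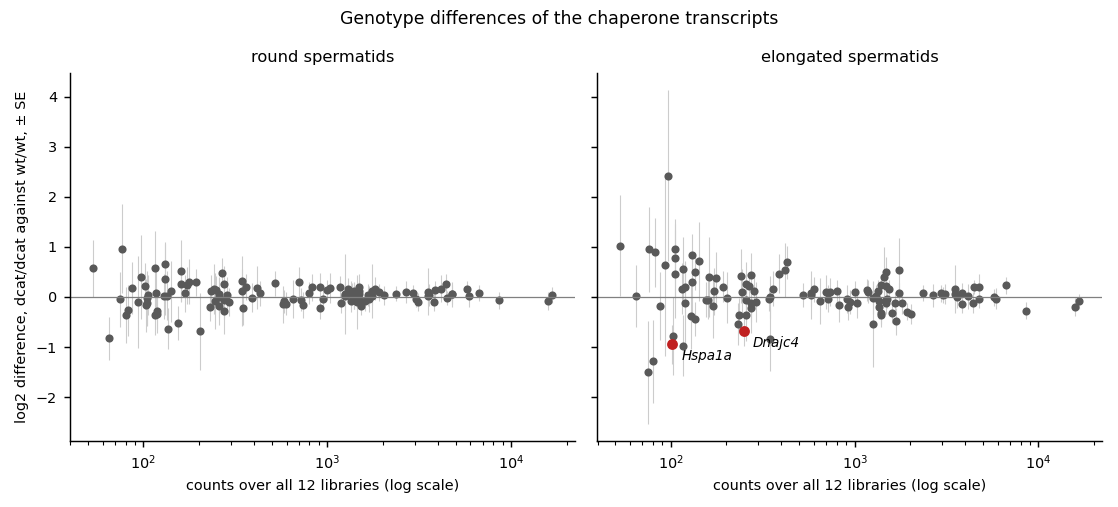
Log2 difference between dcat/dcat and wt/wt (positive where dcat/dcat is higher, y axis, with standard errors) for the 116 members in RS and in ES, against their counts over the 12 libraries (x axis, log scale). Spread is widest at low counts. Hspa1a in ES lies at -0.94 and Dnajc4 at -0.68, and no member was called.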

How the data were processed

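Per the labels and the study's methods, haploid cells were gated by Hoechst staining after propidium iodide had marked dead cells, and round and elongated spermatids were then told apart by light scatter. Poly(A) RNA of 3 mice was pooled per library, and libraries were read by nanopore direct RNA sequencing. The authors called bases with Guppy, split barcodes with Deeplexicon and aligned reads with minimap2. They deposited raw read counts per contig for 12 libraries, and 0 columns of values were left without a sample. They also deposited DESeq2 tables of their own comparisons, from which only contig and symbol were used. Of 12114 contigs, 11225 had a symbol, and exons and biotypes came from the annotation for 11344 of 11517 transcript contigs.

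A contig was kept if 2 or more libraries of any 1 group held 10 or more of its reads. All 12 libraries were fitted with edgeR 4.0.16 (R 4.3.3, limma 3.58.1), with TMM scaling, a quasi-likelihood test and Benjamini-Hochberg adjustment over all contigs. Alternatives were RLE scaling, total counts only, the Wald test of DESeq2 1.42.0, no filter, at least 10 reads in every library, counts summed by gene, a replicate block, and each library left out. Leaving out the 4 libraries numbered 1 was added after seeing the data. The fit was first tested on simulated data.

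Same-numbered libraries deviated together over 5663 contigs between genotypes in RS (r 0.815, 0.557 and 0.656) and between stages in dcat/dcat (r 0.645, 0.407 and 0.441), but not in every pair between genotypes in ES (lowest r 0.0468) or between stages in wt/wt (lowest r -0.197). Per the study's methods, both stages were taken from the same mice, and each sorting session held a mouse of each genotype. Neither these nor the labels tie a number to a pool or session, and the reported fit is without the block, whose value is given where it changed a dcat/dcat call. Barcodes in these libraries marked the ends of poly(A) tails, per the labels. How libraries were spread over runs is not settled by the sources, so a part of the run in the groups was not tested.

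Each gene was represented by its most counted contig. Named were, per family, up to 4 genes with the most counts and up to 3 higher and 3 lower genes with the smallest q in wt/wt, every CCT subunit, genes called in both directions, and the 3 contigs with the smallest p in each genotype comparison. Members and lists were chosen with earlier results of these data known. Near copies were sought with minimap2 2.31 among annotated transcripts (at least 50% of the contig covered at 90% identity), and 13 member contigs had one, none of them in the count table. Python 3.11.15 with pandas 2.3.3 and numpy 2.4.6 did the rest. Floors cover counting error only.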

Additional observations from a re-analysis of the deposited data

How the results depend on the processing

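The number of members called between stages stayed within 1.5 times under every alternative run, from 43 to 70 in wt/wt (59 as reported, 70 with the replicate block, 64 of 107 with libraries 2 and 3 only) and from 41 to 65 in dcat/dcat (53 as reported, 65 with the replicate block, 51 of 107 with libraries 2 and 3 only). With 1 library left out the counts ran from 43 to 50 and from 41 to 50. Between genotypes and for the interaction 0 members were called under every alternative. By total counts, 21 members were higher and 49 lower in wt/wt, against 20 and 45 in dcat/dcat; with at least 10 reads in every library, 20 and 26, and 20 and 23. Of the calls in wt/wt, 27 of 36 higher and 7 of 23 lower held in every fit with 1 library left out that tested the contig, and in dcat/dcat 26 of 30 and 11 of 23. For Hspa1a in wt/wt there were 4 such fits. Shares of all contigs are given for the reported fit, total counts and the replicate block. For the other settings they are not given here, and those counts describe the members alone.

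A change of sign occurred in 20 of 115 results for named contigs, 15 of them with total counts only. With total counts only, the wt/wt values became -0.54 for Bag6, -0.34 for Dnajb14, -0.26 for Dnajc15, -0.26 for Dnajc18, -0.18 for Hspb9 and -0.14 for Hspb1. The dcat/dcat values became -0.55 for Bag6, -0.058 for Dnaja3, -0.28 for Dnajb14, -0.39 for Dnajc15, -0.29 for Dnajc7, -0.50 for Hsp90ab1, -0.36 for Hspb9, -0.39 for Hspb1 and -0.060 for Hspb6. With at least 10 reads in every library, Bag6 was at -0.14 in wt/wt and -0.16 in dcat/dcat, and Hsp90ab1 at -0.11 in dcat/dcat. With counts summed by gene, the wt/wt values became 0.11 for Cct6b, 0.025 for Hsp90ab1 and -0.11 for Dnajb6, and the dcat/dcat value of Dnajb6 became -0.23, since both Dnajb6 contigs then share 1 value. With libraries 2 and 3 only, Hsp90ab1 was at 0.12 in wt/wt. With 1 library left out, the values ran from -0.023 to 0.25 for Bag6 in dcat/dcat, -0.16 to 0.10 for Cct6b in wt/wt, -0.31 to 0.042 for Hsp90ab1 in wt/wt, -0.060 to 0.52 for Hsp90ab1 in dcat/dcat and -1.18 to 0.066 for Hspb6 in wt/wt. Total counts leave out the TMM factors, and the stage changes listed for that setting were all lower without them. In wt/wt, Dnajc15 went from 0.46 to -0.26 and Hspb9 from 0.53 to -0.18. For the other settings, apart from summed counts, the cause was not tested.

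The replicate numbers are those of the labels. Blocking on them moved the member calls to 38 higher and 32 lower in wt/wt, and to 36 higher and 29 lower in the mutant, while the share of all contigs called went to 51.6% and 51.9%. Named contigs reported as not called that passed with the block were Cct7 (q 0.00871) and Dnajb14 (q 0.0407) in wt/wt by edgeR's test, beside the 4 in the mutant given with their genes. No call of a named contig was lost with it. Depth limits the rarest members most: with 53 to 102 reads over 12 libraries, as for Hspa1a, a contig could drop below the count filter once 1 library was left out, and no value was then had.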
